A study of Mus musculus with 15 samples.

Results

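The Zscan4 family of the mouse was followed copy by copy: Zscan4a, Zscan4b, Zscan4c, Zscan4d, Zscan4e, Zscan4f, Zscan4-ps1, Zscan4-ps2 and Zscan4-ps3. The members were taken by gene symbol, which gave 9 of the 51627 genes in the stem cell table and 9 of the 53564 genes in the embryo table. Gene expression had been measured in 15 libraries titled RNA-Seq. J1 cells, a mouse embryonic stem cell (ESC) line grown without feeder cells, gave 2 wild type control libraries and 2 libraries with Zscan4 overexpression (OE). Embryos at the 2-cell stage gave 5 control libraries, described as wild type, and 6 libraries with Zscan4 RNAi. The labels do not say which copy was introduced, from which promoter, which sequence the RNAi was directed against, or how many embryos went into a library. They also leave it unsaid whether the replicates are separate cultures or embryo pools; p-values therefore reflect library-to-library spread alone, which may be technical.

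Zscan4 genes encode DNA-binding proteins with a SCAN domain, through which such proteins pair, and a set of zinc fingers. They are transcribed in a burst in late 2-cell embryos, when the embryo's own genome is switched on, and in a small and changing fraction of cultured ESCs, where they are known for their part in telomere maintenance and as markers of a 2-cell-like state. Zscan4c is generally described as the main copy in ESCs and Zscan4d as the main copy in embryos.

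The 9 copies lie in 1 cluster on chromosome 7, from position 10794242 to 11614112 (mm10), a span of 819.871 kb that holds 44 other annotated genes. In order along the chromosome they are Zscan4a (chr7:10794242-10799057, minus strand), Zscan4b (chr7:10900740-10905050, minus), Zscan4c (chr7:11005745-11010547, plus), Zscan4-ps1 (chr7:11065139-11069691, minus), Zscan4d (chr7:11161374-11166159, minus), Zscan4e (chr7:11306378-11310682, minus), Zscan4f (chr7:11397915-11402318, plus), Zscan4-ps2 (chr7:11514310-11519111, plus) and Zscan4-ps3 (chr7:11609308-11614112, plus). No other annotated gene overlaps any of them. Names and annotation differ on which copies are genes. GENCODE vM21 calls Zscan4a an unprocessed pseudogene and the other 8 copies protein-coding, including the 3 whose names carry "ps", whereas RefSeq (GRCm38.p6) calls Zscan4a a transcribed pseudogene and Zscan4e and the 3 "ps" copies pseudogenes. The annotated coding sequences of these 8 copies begin with a start codon and hold no stop codon before their end. Their length is 505 codons in Zscan4b and Zscan4e and 506 in the other 6, while the longest open frame of Zscan4a has 360 codons.

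The copies are so alike that a short read often fits several of them. Over aligned coding bases, Zscan4c matched Zscan4f at 99.6% (6 mismatches), Zscan4-ps2 at 99.5% (8 mismatches), Zscan4-ps3 at 98.8% (18), Zscan4-ps1 at 98.0% (31), Zscan4e at 97.9% (32), Zscan4b at 97.8% (34) and Zscan4d at 97.7% (35). Zscan4b and Zscan4e differed at 4 bases, as did Zscan4f and Zscan4-ps2. Of all 50-base sequences in a copy's exons, another copy held 49.6% for Zscan4d, 48.4% for Zscan4-ps1, 63.6% for Zscan4a and 72.5% for Zscan4-ps3, and between 85.5% (Zscan4c) and 90.1% (Zscan4b) for the other 5. The treatment of reads that fit several genes is not given in the sources used here, so the value of a single copy is uncertain, and least so for Zscan4d and Zscan4-ps1, which hold the most sequence of their own. The following 60 bases are coding bases 713 to 772, counted from the A of the start codon. Among windows of this length they gave the most distinct sequences over the 8 copies with an annotated coding sequence. Ties were settled by the number of differences from Zscan4c. They are shown to mark where copies differ. Capitals mark bases that differ from Zscan4c.
Zscan4c: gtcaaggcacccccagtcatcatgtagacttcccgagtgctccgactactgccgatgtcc
Zscan4f: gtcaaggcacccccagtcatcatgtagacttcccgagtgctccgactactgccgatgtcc
Zscan4-ps2: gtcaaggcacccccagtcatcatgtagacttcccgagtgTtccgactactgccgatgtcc
Zscan4-ps3: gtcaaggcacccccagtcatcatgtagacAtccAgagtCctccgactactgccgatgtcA
Zscan4b: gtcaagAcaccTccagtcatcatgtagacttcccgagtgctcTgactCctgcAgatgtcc
Zscan4e: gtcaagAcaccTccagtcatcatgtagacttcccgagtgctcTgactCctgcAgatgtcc
Zscan4d: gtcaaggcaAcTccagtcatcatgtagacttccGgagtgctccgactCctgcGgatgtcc
Zscan4-ps1: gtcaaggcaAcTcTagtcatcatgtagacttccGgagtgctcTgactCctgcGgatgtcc
The sequences are from the GENCODE vM21 transcripts, and on the genome the window lies at chr7:11009188-11009247 in Zscan4c and chr7:11162670-11162729 in Zscan4d. Even here Zscan4c and Zscan4f are identical, as are Zscan4b and Zscan4e, so the 8 copies give 6 distinct sequences. At the other extreme, 99 bases were the same in all 9 copies (in Zscan4c at chr7:11009882-11009980, its coding bases 1407 to 1505), and no read inside them can be assigned to 1 copy.
all 9 copies: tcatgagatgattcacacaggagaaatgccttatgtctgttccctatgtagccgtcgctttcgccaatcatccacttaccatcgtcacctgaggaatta

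Library depth was 21820093 to 26555027 reads assigned to genes in the stem cell libraries and 695524 to 1432566 in the embryo libraries. Values are in normalised reads, which are the reads of a gene divided by the size factor that the authors gave each library. Reads of the family numbered 160 and 226 in the ESC controls and 21945 and 16314 with overexpression. They were 353 to 1443 per embryo control and 200 to 425 in 5 of the RNAi libraries. The library RNAi 4 stood apart with 12 family reads out of 1012796, so that 1 read there is a large share. Its summed level of 5 oocyte and early embryo markers was 5520 normalised reads, against 1313 to 2763 in the other RNAi libraries and 1179 to 2230 in the controls. Whether that bears on its Zscan4 values was not tested. Markers of cumulus cells, which surround the egg, summed to at most 2.93 normalised reads in any embryo library, with Has2, Inha and Amh at 0. Blood markers summed to 26.8 to 68.4 normalised reads in the embryo controls and 6.52 to 139 with RNAi. Fibroblast markers summed to 2.78 to 24.3 in these controls and 5.74 to 39.5 with RNAi. The library RNAi 4 was highest for both lists. The 5 stem cell markers summed to 64985 to 65184 in the ESC controls and 76020 to 89246 with overexpression, while 4 fibroblast markers summed to 690 to 732 and 4006 to 5756. Of these, Tagln rose from 237 to 4424 normalised reads and Col1a2 from 53.0 to 258, Thy1 fell from 421 to 196, and Postn stood at 0 and 3.33. Their part in the results was not tested. In such bulk libraries fewer expressing cells and less RNA per cell cannot be told apart.

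In control ESCs no single copy made up most of the family. Zscan4c held 20.6% and 20.4% of the family reads in the 2 libraries, Zscan4f 15.6% and 20.4%, and Zscan4-ps2 15.6% and 17.7%. Zscan4e held 29.4% in the first library (47 of 160 reads, exact 95% interval 22.4% to 37.1%) and 11.9% in the second (27 of 226, 8.02% to 16.9%), a difference between replicates larger than their counting error. These 4 copies together took 81.2% and 70.4%. Intervals here and below are exact binomial ones and cover counting error only.

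The remaining copies were minor in control ESCs. Zscan4a held 5.00% and 11.1%, Zscan4b 2.50% and 11.1%, and Zscan4d, the copy known from embryos, 6.88% and 4.87% (11 reads in each library). Zscan4-ps3 held 2.50% and 1.33%, and Zscan4-ps1 1.88% and 1.33%, which rest on 3 or 4 reads per library. Per kilobase of exon, the order of the mean levels was Zscan4e (19.5 normalised reads per kb), Zscan4f (17.1), Zscan4c (16.4), Zscan4-ps2 (13.5), Zscan4b (7.55), Zscan4a (6.81), Zscan4d (4.57), Zscan4-ps3 (1.45) and Zscan4-ps1 (1.41). Each copy overlapped its neighbour in this order over the 2 libraries, except at the step from Zscan4d to Zscan4-ps3.

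**Figure D1:**
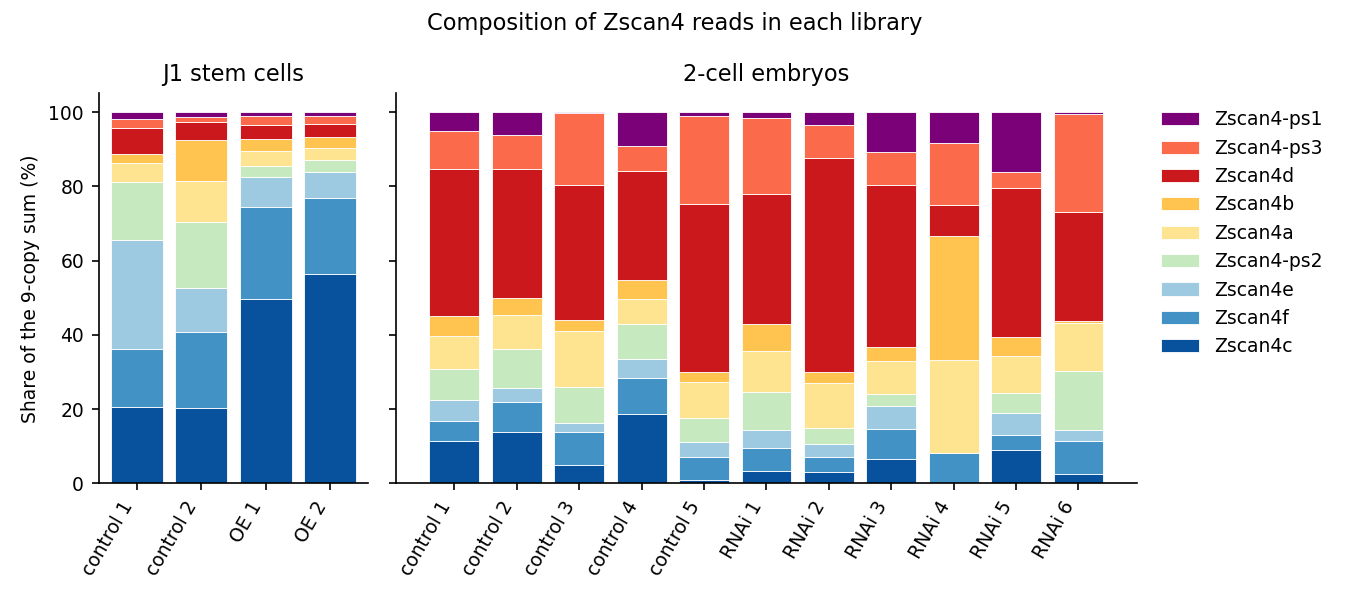
Stacked bars give the share (%) of each of the 9 copies in the Zscan4 reads of each library, J1 stem cells on the left and 2-cell embryos on the right. Zscan4c (dark blue) fills 49.6% and 56.5% of the overexpression bars, and Zscan4d (dark red) is the tallest segment in all embryo bars except RNAi 4, which rests on 12 reads.

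Embryos had another composition. Zscan4d led in 5 of 5 control libraries, with 39.6%, 34.6%, 36.4%, 29.3% and 45.3% of the family reads (mean 37.0% ± 5.95, SD, n = 5). It had 1.56 to 3.48 times the reads of the copy in second place, which was Zscan4c in controls 1, 2 and 4 and Zscan4-ps3 in controls 3 and 5. Zscan4-ps3 followed with a mean of 13.9% ± 7.22, then Zscan4c with 9.94% ± 7.11, Zscan4a with 9.90% ± 3.09, Zscan4-ps2 with 8.90% ± 1.57 and Zscan4f with 7.73% ± 1.78. The lowest means were those of Zscan4-ps1 (4.32% ± 3.69), Zscan4b (4.20% ± 1.27) and Zscan4e (4.12% ± 1.22).

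Per kilobase of exon, Zscan4d stood at 117 ± 41.8 normalised reads per kb in the embryo controls, with a lowest library at 68.8. The next 5 copies, Zscan4-ps3 (39.6), Zscan4c (36.3), Zscan4a (31.5), Zscan4-ps2 (29.9) and Zscan4f (29.2), differed by less than their SDs, and so did the last 3, Zscan4b (18.2), Zscan4-ps1 (17.6) and Zscan4e (17.1). On this scale the highest library of any other copy was below the lowest of Zscan4d (Zscan4c, 64.8).

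Some copies varied more between embryo controls than counting error gives. Zscan4c held 18.7% in control 4 (108 of 577 reads, interval 15.6% to 22.1%) and 0.850% in control 5 (3 of 353, 0.176% to 2.46%). For Zscan4-ps1 the extremes were 9.19% in control 4 (53 of 577 reads, 6.96% to 11.8%) and 0.204% in control 3 (1 of 489, 0.00518% to 1.13%). By contrast the shares of Zscan4-ps2 lay between 6.52% and 10.7% and those of Zscan4f between 5.55% and 9.71% in the 5 controls.

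Set side by side, the control shares of 6 copies did not overlap between ESCs (2 libraries) and embryos (5 libraries). No background over all genes stands beside this count. The 2 tables were normalised separately and levels are not compared across them. A share is a ratio within a library, so the size factor cancels, but the uncertain assignment of reads that fit several copies does not. Cell type cannot be told apart from other differences between the 2 sets of libraries, such as depth. No test was made across tables. Zscan4d averaged 5.87% in ESCs and 37.0% in embryos, and Zscan4-ps3 1.91% and 13.9%. In the other direction Zscan4e averaged 20.7% and 4.12%, Zscan4c 20.5% and 9.94%, Zscan4f 18.0% and 7.73%, and Zscan4-ps2 16.7% and 8.90%. Shares of the same sum trade off in part, and the larger Zscan4d share in embryos leaves less for the other copies. How much of these lower shares that makes up was not tested. Zscan4a, Zscan4b and Zscan4-ps1 overlapped. With the reads of each copy divided by the length of exon sequence that no other copy holds at 50 bases, the ranges stayed apart for Zscan4d (1.47% and 16.1%), Zscan4-ps3 (0.872% and 11.4%) and Zscan4e (29.2% and 9.96%), and overlapped for Zscan4c, Zscan4f and Zscan4-ps2. Zscan4d still had the highest mean of the 9 copies in embryos on that measure, above Zscan4-ps2 (15.4%), Zscan4f (14.2%) and Zscan4c (13.9%), whose ranges overlapped its own.

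**Figure D2:**
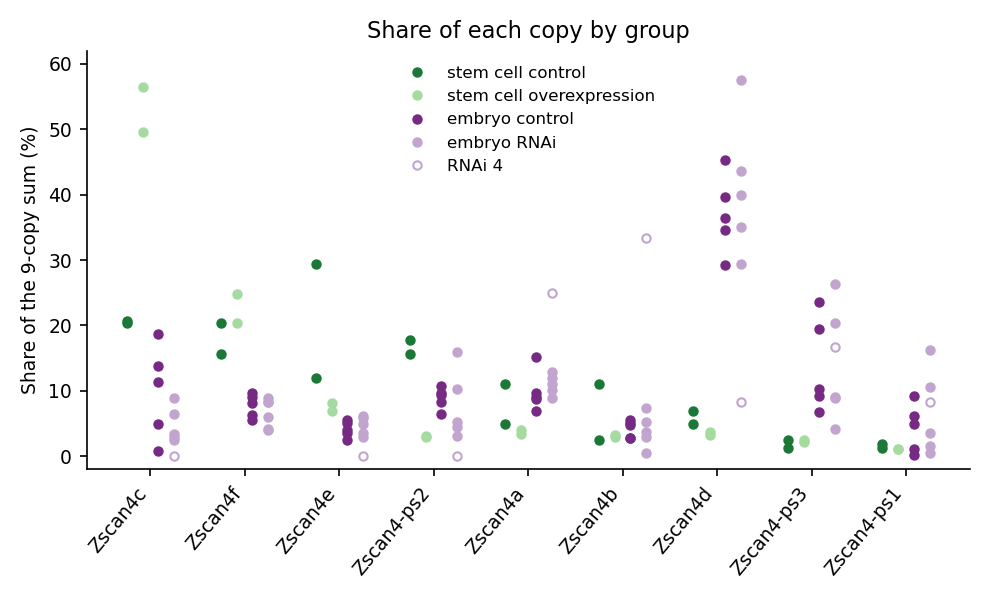
Each point is the share (%) of a copy in the Zscan4 reads of 1 library, coloured by group, with copies along the horizontal axis and RNAi 4 drawn as an open circle. The control points of Zscan4d lie at 4.87% and 6.88% in stem cells and from 29.3% to 45.3% in embryos, and those of Zscan4e at 11.9% and 29.4% against 2.45% to 5.55%.

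The overexpression comparison asks how the family responded when Zscan4 was introduced into ESCs. Before any copy is singled out, the family sum rose 108.4-fold, from 152 and 212 normalised reads to 20005 and 19449. A set of 5 markers of the 2-cell stage other than Zscan4 summed to 6.67 and 22.5 normalised reads in control cells, against 239 and 241 with overexpression, and 2 of 5 were called higher (Tcstv3 and Usp17lc) and 0 lower. All 9 copies rose in limma with Benjamini-Hochberg adjustment over the 20888 genes tested, at a threshold of 0.05 on the adjusted p. Among all those genes 23.2% were called, 11.7% as higher and 11.4% as lower. In all 9 copies both overexpression libraries lay above both controls, as they did for 34.2% of all genes tested. Without either control no copy passed on the same set of genes (adjusted p 0.252 for each copy, limma), nor did any other gene, although all 9 were at an unadjusted p under 0.05 and their log2 fold changes stayed between 3.97 and 8.33. The filter on low values was also applied again to the 3 remaining libraries, an alternative added after the data were seen. The calls then changed while the fold changes did not. Such fits hold a single control library, so they cannot decide whether a copy passes.

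Zscan4c gained most. It stood at 31.4 and 43.1 normalised reads in the control cells, against 9914 and 10993 with overexpression, 280.7-fold higher (log2 fold change 8.11 ± 0.23, SE, adjusted p = 0.0112, limma on log2 of the value plus 1). Its gain was 53.3% of the whole family's, and its share went from 20.6% and 20.4% to 49.6% and 56.5%. Zscan4f, its closest relative by coding sequence, was next, from 23.8 and 43.1 to 4960 and 3977 normalised reads (133.6-fold, log2 fold change 7.07 ± 0.35, adjusted p = 0.0112). It took 22.7% of the gain, and its share was 15.6% and 20.4% in the controls and 24.8% and 20.4% with overexpression, so that its second overexpression library barely exceeded its second control. Together these 2 copies rose from 36.2% and 40.7% to between 74.3% and 77.0% of the family reads.

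The other 7 copies rose too, each to a level between 218 and 1481 normalised reads on average. Zscan4e, among the leading copies of control ESCs, went from 44.8 and 25.3 to 1619 and 1342 normalised reads (42.3-fold, log2 fold change 5.41 ± 0.35, adjusted p = 0.0116). Zscan4d rose from 10.5 and 10.3 to 748 and 645 (67.0-fold, 5.93 ± 0.27, adjusted p = 0.0112), and the pseudogene Zscan4a from 7.62 and 23.4 to 811 and 665 (47.6-fold, 5.66 ± 0.57, adjusted p = 0.0137). Zscan4b went from 3.81 and 23.4 to 640 and 573 (44.6-fold). Zscan4a and Zscan4b, whose control libraries differed most, no longer passed when either overexpression library was left out (adjusted p 0.0550 to 0.101).

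Among the 3 copies named as pseudogenes the rise varied widely. Zscan4-ps3 rose from 3.81 and 2.81 to 496 and 433 normalised reads (140.3-fold) and Zscan4-ps1 from 2.86 and 2.81 to 222 and 215 (77.0-fold), starting from 7 and 6 reads over both controls. Zscan4-ps2 rose least, from 23.8 and 37.4 to 596 and 606 (19.6-fold, log2 fold change 4.28 ± 0.31, adjusted p = 0.0116).

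**Figure D3:**
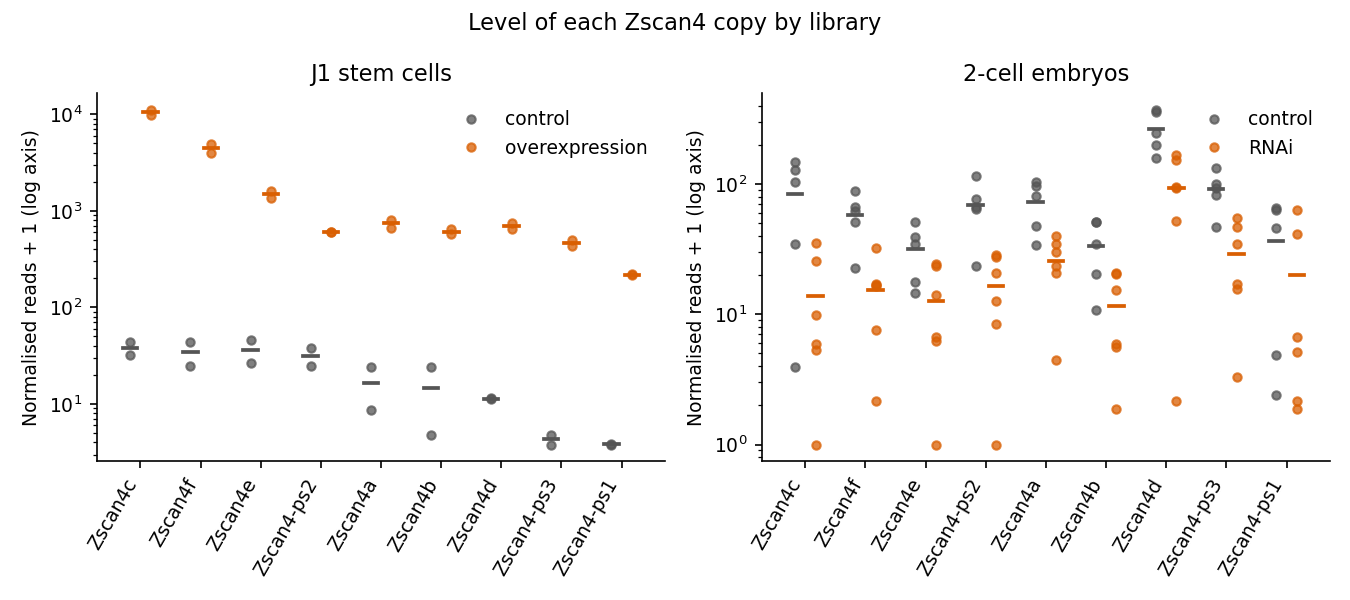
Each point is the level of a copy in 1 library (normalised reads plus 1, logarithmic axis) and each bar the group mean, controls in grey and treated libraries in orange. All overexpression points lie above all control points, whereas control and RNAi points overlap for each of the 9 copies in embryos.

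With all copies up, the composition of the family shifted toward Zscan4c. Its mean share was 32.5 percentage points higher with overexpression (20.5% ± 0.192 and 53.0% ± 4.93, n = 2 each). That of Zscan4-ps2 was 13.6 points lower (16.7% ± 1.47 and 3.05% ± 0.0945) and that of Zscan4e 13.2 points lower (20.7% ± 12.3 and 7.50% ± 0.842). For 7 copies the shares of the 2 groups did not overlap, while those of Zscan4b and Zscan4-ps3 did. Zscan4-ps1, 1 of the 7, rests on 3 reads in each control. With 2 libraries per group such separation is frequent: on levels it was seen in 34.2% of all genes tested with overexpression higher and in 34.6% with it lower. The test used for shares, an exact two-sided permutation of 2 libraries against 2, cannot go below p = 0.33, so the shifts are given as values.

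Likeness to Zscan4c and gain are given side by side, as the part of a copy's 50-base exon sequences that Zscan4c also holds and its part of the family gain. Zscan4f had 74.3% shared and 22.7% of the gain, and Zscan4-ps2 71.3% and 2.92%. Zscan4-ps3 had 53.1% shared and 2.36% of the gain, Zscan4a 50.7% and 3.70%, and Zscan4e 40.2% and 7.40%. Zscan4-ps1 had 38.0% shared and 1.10% of the gain, Zscan4b 37.1% and 3.03%, and Zscan4d 36.7% and 3.51%. The copy introduced is not named in the labels. How far reads of the introduced copy were counted to other copies was not tested, and transcripts of the introduced and the resident genes cannot be told apart here.

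**Figure D4:**
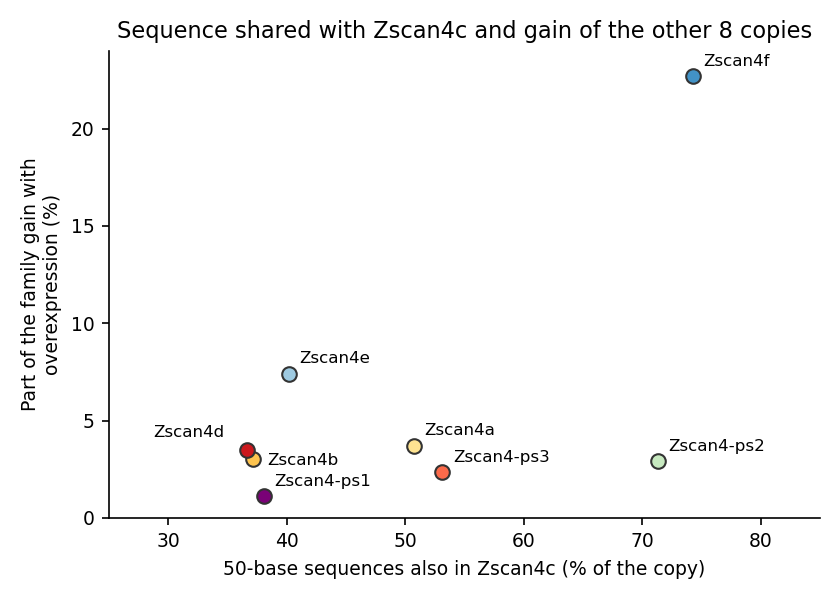
The 8 copies other than Zscan4c are placed by the percentage of their 50-base exon sequences that Zscan4c also holds (horizontal axis) and by their part of the family's gain in normalised reads with overexpression (vertical axis, %). Zscan4f (74.3% shared) took 22.7% of the gain and Zscan4-ps2 (71.3% shared) took 2.92%.

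The start regions of the copies are also alike. RefSeq (GRCm38.p6) promoter sequences matched 4 of the 9 copies, Zscan4b, Zscan4c, Zscan4d and Zscan4f, and these are shown because the other copies had no match. Each stretch has 80 bases before and 25 bases after a TATAAA, the core of a TATA box, which is in capitals. The TATAAA begins 31 bases before the RefSeq start in Zscan4b and Zscan4f, 54 in Zscan4c and 65 in Zscan4d.
Zscan4b: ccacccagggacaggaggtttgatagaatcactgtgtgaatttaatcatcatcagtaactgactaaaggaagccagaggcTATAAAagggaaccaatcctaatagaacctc
Zscan4c: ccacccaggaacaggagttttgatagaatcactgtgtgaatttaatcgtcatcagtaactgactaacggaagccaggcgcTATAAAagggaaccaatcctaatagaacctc
Zscan4d: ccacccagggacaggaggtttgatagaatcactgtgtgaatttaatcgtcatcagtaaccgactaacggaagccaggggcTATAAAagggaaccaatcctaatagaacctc
Zscan4f: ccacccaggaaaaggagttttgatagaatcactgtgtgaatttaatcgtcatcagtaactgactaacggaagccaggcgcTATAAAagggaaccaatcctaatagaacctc
They lie, in mm10, at chr7:10905051-10905161 (minus strand), chr7:11005611-11005721 (plus), chr7:11166183-11166293 (minus) and chr7:11397804-11397914 (plus). Zscan4c and Zscan4f differ at 1 of the 111 bases, Zscan4c and Zscan4d at 4, and the most different pair, Zscan4b and Zscan4f, at 7. TATAAA on either strand in the 150 bases before the start was found in all 4 copies and in 7.57% of 32851 promoters (2488). A match is a description of the letters and not of binding.

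The RNAi comparison asks what the knockdown left of each copy in 2-cell embryos. The family sum was 907, 1064, 680, 676 and 345 normalised reads in the controls (mean 734 ± 272) and 262, 164, 379, 13.9, 383 and 174 in the RNAi libraries (mean 230 ± 142), a 3.20-fold lower mean. The highest 2 RNAi libraries exceeded the lowest control. The 5 markers of the 2-cell stage summed to 822 to 1736 normalised reads in the controls and 466 to 987 with RNAi. Of these, 2 were called lower, Tcstv3 and Tdpoz4 (adjusted p = 0.0102 and 0.00681, limma), and 0 higher. Tcstv1 stood at 274 and 223 (adjusted p = 0.529). Among RNAi libraries the marker sum did not follow the family sum, with 814 in RNAi 2 and 551 in RNAi 5. Of 5 oocyte and early embryo markers, 1 was called higher and 0 lower. Gdf9 rose from 222 to 548 (adjusted p = 0.0312, limma), while Zp3 went the other way, at 78.8 and 37.2 (adjusted p = 0.0723). Zar1, Nlrp5 and Oosp1 had higher means with RNAi but did not pass (adjusted p = 0.167, 0.107 and 0.703). Their part in the fall of the copies was not tested. Of the 9 copies 5 fell in limma with adjustment over the 16417 genes tested (Zscan4f, Zscan4-ps2, Zscan4-ps3, Zscan4a and, narrowly, Zscan4d). Among all those genes 18.2% were called, 12.0% as lower and 6.13% as higher. In none of the 9 copies did the groups separate without overlap, as they did with RNAi lower for 4.28% of all genes tested.

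The copies that fell kept some expression. Zscan4f, 50.3, 87.0, 61.2, 65.6 and 21.5 normalised reads in controls 1 to 5, had an RNAi range of 1.16 to 31.3 with a median of 15.7 (log2 fold change -2.18 ± 0.58, SE, adjusted p = 0.0153). Zscan4-ps2, at 75.5, 113.6, 65.4, 63.2 and 22.5 in the controls, ranged from 0 to 27.8 with a median of 15.8 (-2.48 ± 0.69, adjusted p = 0.0192). In both copies only control 5 came within the RNAi range.

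Zscan4-ps3 had 93.1, 98.9, 132, 45.7 and 81.1 normalised reads in the controls and 2.32 to 53.6, median 25.1, with RNAi (-2.05 ± 0.57, adjusted p = 0.0182). Zscan4a had 79.7, 95.9, 103, 46.8 and 33.2 against 3.48 to 38.8, median 25.7 (-1.66 ± 0.51, adjusted p = 0.0292). Zscan4d, the most abundant copy, had 359, 368, 248, 198 and 156 normalised reads in the controls and 1.16 to 166, median 93.1, with RNAi (-2.22 ± 0.77, adjusted p = 0.0488). Its call is a narrow one: it was lost in 17 of 29 alternative fits, edgeR (adjusted p = 0.0965) and DESeq2 (adjusted p = 0.0535) on recovered reads among them, and when any of controls 1 to 4 was left out (0.0787 to 0.109).

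The other 4 copies did not pass. Zscan4c had the largest ratio of means, with 103, 148, 33.4, 126 and 2.93 normalised reads in the controls and 0 to 34.3, median 6.92, with RNAi (-2.58 ± 0.90, adjusted p = 0.0504). The call depended on the fit: without control 5 the adjusted p was 0.00448 in limma, and Zscan4c was called in 10 of 29 alternative fits. Zscan4b averaged 32.7 ± 18.1 and 10.6 ± 8.20 normalised reads in the 2 groups (adjusted p = 0.0610) and Zscan4e 30.6 ± 15.3 and 11.7 ± 9.72 (adjusted p = 0.0818). Zscan4-ps1 had the smallest difference, 35.5 ± 30.9 and 19.1 ± 26.0 (-1.14 ± 0.99, adjusted p = 0.446). Leaving out 1 control moved the number of copies called from 5 to 3 (control 1), 1 (control 2), 2 (control 3), 4 (control 4) or 7 (control 5). It was 6 without RNAi 3, 8 without RNAi 5 and 4 without RNAi 6, and stayed at 5 without RNAi 1, RNAi 2 or RNAi 4.

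The composition of the family was not told apart between control and RNAi embryos. Zscan4d was first in 5 of 6 RNAi libraries, with 35.1%, 57.5%, 43.6%, 40.0% and 29.4%, and had 8.33% in RNAi 4 (1 of 12 reads). Its mean share was 37.0% ± 5.95 in the controls and 35.7% ± 16.4 with RNAi (exact two-sided permutation p = 0.866). Zscan4c showed the lowest p of the 9 copies, with a mean of 9.94% ± 7.11 in the controls and 4.06% ± 3.18 with RNAi, 5.88 percentage points lower (exact permutation p = 0.0974, unadjusted, 9 shares tested). The p of the other 7 copies lay between 0.290 (Zscan4a) and 0.933 (Zscan4-ps3). No share passed an unadjusted 0.05 over all 11 libraries. Zscan4c did so without control 5 (8.16 points lower, exact permutation p = 0.0190) and Zscan4-ps2 without RNAi 6 (4.30 points lower, exact permutation p = 0.0476), neither adjusted for 9 shares.

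Within embryos, Zscan4-ps1 and Zscan4-ps3 took opposite shares, a pattern noticed after the values were seen. Zscan4-ps1 held 16.2%, 10.7% and 9.19% in RNAi 5, RNAi 3 and control 4, where Zscan4-ps3 held 4.24%, 8.93% and 6.76%. In RNAi 6, control 5, RNAi 1 and control 3 it held 0.498%, 1.13%, 1.57% and 0.204%, where Zscan4-ps3 held 26.4%, 23.5%, 20.4% and 19.4%. As a description, Pearson's r of the shares was -0.79 and Spearman's rho -0.85 over 11 libraries, and r was -0.74 without RNAi 3 and RNAi 5. Shares of 1 sum are bound to trade off in part. On levels, with the group mean taken off log2 values, the 2 copies had r = -0.0015 over all 11 libraries, the lowest of 36 pairs, whose median was 0.76. Without RNAi 4 it was -0.51, again the lowest, at a median of 0.59, so that the negative value on levels appears only with that library left out. The 5 pairs then below 0 all held Zscan4-ps3, among them its pair with Zscan4d, at -0.13 without RNAi 4 and 0.76 with it.

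**Figure D5:**
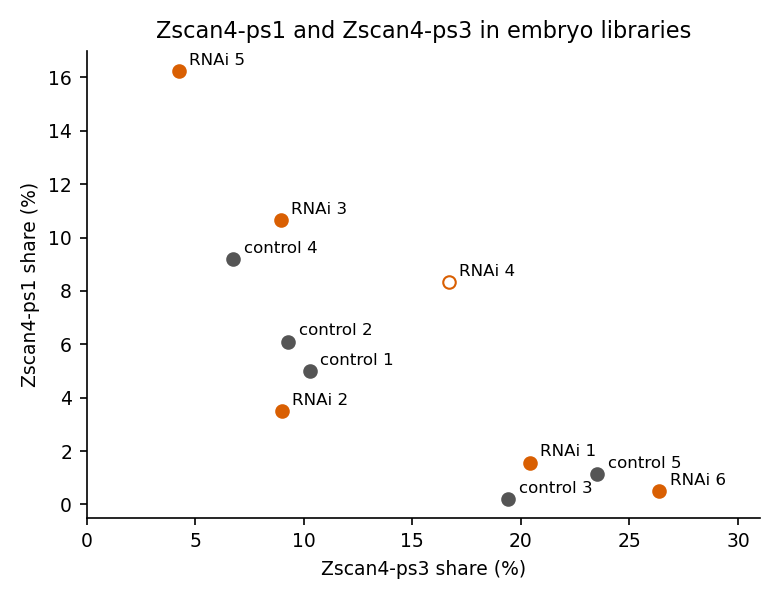
Each point is 1 embryo library, placed by its share of Zscan4-ps3 (horizontal axis, % of Zscan4 reads) and of Zscan4-ps1 (vertical axis, %), controls in grey and RNAi in orange. RNAi 5 (4.24% and 16.2%) and RNAi 6 (26.4% and 0.498%) mark the ends, and the open circle is RNAi 4, with 12 Zscan4 reads.

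Of the 44 genes lying between the copies, 34 gave no read in any ESC library and 21 none in any embryo library. In ESCs 5 could be tested and 2 rose, where 11.7% of all genes did. In embryos 8 could be tested and 1 fell, against 12.0% of all genes, a share near the background. Gm45598, a transcribed pseudogene 10.331 kb before the start of Zscan4f, rose from 30.7 to 389 normalised reads with overexpression (adjusted p = 0.0255), and Gm45551, which shares sequence with the copies, from 6.12 to 47.4 (adjusted p = 0.0280). Gm7789 near Zscan4c stood at 50.6 and 13.2 (adjusted p = 0.0747). Gm18204, 3.345 kb before the start of Zscan4d, was listed at 0 in both ESC controls. In embryos it was the most abundant neighbour, with 69.1 ± 37.8 normalised reads in the controls and 19.1 ± 14.8 with RNAi (log2 fold change -2.28 ± 0.70, adjusted p = 0.0287).

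Known regulators and partners of the family moved in part. In ESCs, 5 of 18 tested rose and 0 fell, where 11.7% of all genes rose and 11.4% fell, at a median log2 fold change of 0.38 against -0.02 over all genes. In embryos 1 of 19 rose and 8 fell, where 6.13% of all genes rose and 12.0% fell, at a median of -0.82 against -0.03. Dppa2, a chromatin factor upstream of the 2-cell genes, rose from 302 ± 13.7 to 3419 ± 83.0 normalised reads with overexpression (adjusted p = 0.0112), and was at 202 ± 72.9 and 112 ± 34.4 in control and RNAi embryos (adjusted p = 0.0850). Its partner Dppa4 rose from 1560 to 3132 in ESCs (adjusted p = 0.0254) and fell from 240 to 44.0 in embryos (adjusted p = 0.00502). Tbx3, a T-box factor of stem cells, rose from 1225 to 2958 and fell from 71.4 to 17.8 (adjusted p = 0.0191 and 0.0110).

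The co-repressor Trim28 went from 29573 to 81498 normalised reads in ESCs and from 114 to 40.3 in embryos (adjusted p = 0.0248 and 0.0104), and the deacetylase Hdac1 from 3748 to 7372 and from 204 to 56.9 (0.0225 and 0.0115), all in limma. Duxf3, a copy of the Dux repeat whose protein activates 2-cell genes, was the 1 gene of the list to rise with RNAi, from 0.699 ± 1.10 to 27.8 ± 38.2 normalised reads (adjusted p = 0.00502). In ESCs it stood at 7.11 ± 4.76 and 46.2 ± 24.1 (log2 fold change 2.58 ± 0.68, adjusted p = 0.0598). Its own copies are near-identical, so this value is as uncertain as those of the Zscan4 copies.

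Of 9263 other genes with a mean of at least 10 normalised reads in embryos, 5 were named by their Pearson's r with the family sum over 11 libraries once group means were taken off. Trpm7 had r = 0.97 (Spearman's rho 0.87, and r = 0.85 without RNAi 4 and RNAi 5), Fam72a 0.95 (0.95 and 0.88), Ccdc77 0.95 (0.67 and 0.68), Matr3 0.94 (0.81 and 0.74) and Ppid 0.94 (0.73 and 0.79). Trpm7 is first by r over all libraries, and Fam72a is above it by rho and without those 2 libraries. RNAi 4 was the lowest library for the family and for these 5 genes, and the 2 values compared in each library share its size factor.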

How the data were processed

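Groups were taken from the titles and genotype labels. Libraries are titled RNA-Seq and were treated so, although the labels name genomic DNA, a DNA kit and, for embryos too, the culture of the stem cells. Trimmomatic, HISAT2, featureCounts and mm10 are named per the submitters' processing notes, and not given in the sources used here were tool versions, annotation, strand and the handling of reads that fit several genes. Each cell type has 1 table deposited by the authors, whose unit is a normalised signal, namely counts per gene over a library's size factor. The values themselves show it: within 0.01 read, 100% were whole multiples of 1 step per library, and reads were recovered by dividing by it. The embryo control columns are numbered 1 to 5, unlike the labels, so those numbers only name libraries.

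Each comparison was fitted alone with limma 3.58.1 (R 4.3.3, trend) on log2(value + 1), over genes reaching 1 normalised read in 2 or more stem cell or 5 or more embryo libraries, with Benjamini-Hochberg adjustment over all of them and a threshold of 0.05. A share is a copy's percentage of the reads of the 9 copies, with exact binomial 95% intervals (scipy 1.17.1) and, at 0 reads, a limit of 3 reads. Mean shares were compared by exact permutation of libraries, over all assignments. Alternatives were pseudocount 0.5, no filter, TMM, library totals, library weights, edgeR 4.0.16 and DESeq2 1.42.0 on recovered reads, each library left out, a replicate block, and other definitions of a share. Sequences are from GENCODE vM21 transcripts and RefSeq, aligned with MAFFT 7.526. The limma fit was tested on simulated data, which covered neither shares nor reads that fit several copies. The members and gene lists were chosen with earlier results of these data known. All 9 members are named; of the regulators, the 6 with the smallest p; of the neighbours, those with the largest means; and the 5 genes most like the family sum. Uhrf1 and the fibroblast marker Col1a1 were not analysed here in stem cells, and 1 of the Dux genes in neither cell type.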

Additional observations from a re-analysis of the deposited data

Results flagged for a closer look

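Of 38 groups of 4 to 10 values examined, 2 held a value far from the others, and chance gives about 1 in 20. Both are shares in the library RNAi 4: Zscan4a at 25% (3 of 12 reads, exact 95% interval 5.49% to 57.2%) against 8.93% to 12.9% in the other 5 RNAi libraries, and Zscan4b at 33.3% (4 of 12 reads, 9.92% to 65.1%) against 0.498% to 7.33%. Zscan4c, Zscan4e and Zscan4-ps2 had 0 of 12 reads there, which allows a share of up to 25% at a limit of 3 reads (upper end of the exact 95% interval 26.5%). Without this library the RNAi minus control difference of the Zscan4b share was -0.240 percentage points, in place of 4.66.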

How the results depend on the processing

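In stem cells the 9 copies were higher in all 16 alternatives, and 9 passed in each except library weights (7) and the fits leaving out a library, which gave 0 to 7 (0 without either control, limma, with all 9 at an unadjusted p under 0.05; 7 without either overexpression library). The filter on low values was also applied again to the remaining libraries, an alternative chosen after seeing the data. These numbers then changed while the fold changes did not. Such fits leave a single library in a group, so they cannot decide the calls. With the replicate block 9 copies passed, and over all genes 2943 were called higher and 3081 lower; the labels give stem cell libraries matching numbers, and the deviations of same-numbered libraries had a correlation of -0.01, so the numbers were not taken as pairs. No paired analysis was possible in embryos because the columns carry no label numbers for the controls.

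In embryos all 9 copies kept a lower mean log2 value in all 29 alternatives. The number called was 4 to 7 with other settings or tools and 1 to 8 with a library left out. Among the latter were 3 without control 1, 1 without control 2, 2 without control 3, 7 without control 5 and 8 without RNAi 5. These numbers were the same with the filter applied again. Zscan4c was called in 10 alternatives and Zscan4b in 8. Scaling to the library total moved the median of all genes to -0.11 (log2), and 6 copies were called lower there.

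The number of embryo shares under an unadjusted 0.05 was 0, and 1 without control 5 or without RNAi 6. Differences in share (RNAi minus control, percentage points) near 0 changed sign. That of Zscan4d (-1.39) became 0.667 and 0.57 per length of its own at 50 and 100 bases, and -5.76 to 4.08 over the libraries left out, above 0 without control 5 (0.685) or RNAi 4 (4.08, also the value with at least 50 family reads). That of Zscan4e (-0.199) became 0.394 and 0.230 per own length, 0.339 as a log2 ratio to the other copies, and -0.652 to 0.585 over the libraries left out, above 0 without control 1, control 4 or RNAi 4 (0.159, 0.0276 and 0.585). That of Zscan4-ps3 (0.420) became -0.369 and -0.0564 per own length, and -2.0 to 2.84 over the libraries left out, below 0 without controls 1, 2 or 4 or RNAi 1, 4 or 6 (-0.476, -0.721, -1.35, -0.810, -0.0593 and -2.0). That of Zscan4b (4.66) ranged from -0.240 without RNAi 4 to 6.33 without RNAi 6. The cause was not tested. Embryo depth limits single copies: 1 read is worth 0.687 to 1.39 normalised reads.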
